A study of Homo sapiens with 6 samples.

Results

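The genes examined were 54 nucleolar ribosome biogenesis genes, chosen by name from a list of factors that make ribosomes. The choice was made with earlier results of these data known, so their counts describe this set only. All 54 were found in the 27381 genes of the deposited table. They were read in RNA-seq of DU145, a line of human castration-resistant prostate cancer cells from a metastasis, with 2 libraries per condition and 6 in all. Control cells carried a scrambled sgRNA (Scr), and the other conditions are labelled as knockouts of CD24 (CD24 KO), a surface glycoprotein gene, and of RCC2 (RCC2 KO), a regulator of mitosis. Per the methods, knockout and control cells were made with Cas9 and sgRNAs, sorted for GFP and grown as clones, and the labels do not say whether the libraries of a condition are separate clones or repeat cultures. The authors deposited 1 FPKM value per gene and condition, that is, fragments scaled to the length of the transcript and to all mapped fragments. No value therefore has an SD or a p-value, and no difference has a replicate check. The RCC2 KO column bears the name of the first RCC2 KO library as well as the stem of both, and may hold 1 library or both.

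The labels were checked first. CD24 was at 93.2 FPKM in Scr, 309 in CD24 KO and 214 in RCC2 KO, and RCC2 was at 37.8 FPKM in Scr, 14.2 in CD24 KO and 41.8 in RCC2 KO. The CD24 row was higher in the libraries labelled CD24 KO than in Scr. The table places this row on chromosome Y, while RefSeq (GRCh38.p14) has CD24 on chromosome 6. The loci of the table were read as hg19, so these placements come from different builds. Whether the row reads the edited gene or a copy was not tested, and its value does not check the edit. RCC2 RNA was about level with Scr in the libraries labelled RCC2 KO, and it was lower, at 37.4% of Scr, in those labelled CD24 KO. By Western blot, the paper found more RCC2 protein in CD24 KO DU145 cells, the opposite direction to this RNA level. The paper reports checks of its CD24 and RCC2 knockout DU145 clones by Western blot, flow cytometry and Sanger sequencing. The RNA levels read here cannot repeat those checks of DNA and protein. Each direction given here therefore rests on the labels, and in what follows CD24 KO and RCC2 KO mean the libraries so labelled. The epithelial markers EPCAM, CDH1, KRT8, KRT18 and KRT19 were all at 23.7 FPKM or more in each column. In CD24 KO they moved in both directions, with KRT8 at 44.3%, KRT18 at 48.2% and EPCAM at 76.2% of Scr, and CDH1 at 188% and KRT19 at 135%. The keratins KRT8 and KRT18 thus lay lower together with the 54 genes, and their part in the results was not tested. Of the prostate luminal markers, KLK2 and KLK3 were listed at 0 in all 3 columns and TMPRSS2 reached 0.110 FPKM at most. All 9 markers of leukocytes, endothelial cells and fibroblasts were below 1 FPKM in each column. The columns sum to 451272, 388764 and 447005 FPKM for Scr, CD24 KO and RCC2 KO. Sequencing depth cannot be read from FPKM and is unknown.

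A ribosome is built mostly in the nucleolus. RNA polymerase I transcribes one long precursor of the rRNAs of both subunits, small nucleolar ribonucleoproteins (snoRNPs) guide its chemical modification, and separate sets of proteins cut and fold it into the small (40S) and the large (60S) subunit. Growing cancer cells make many ribosomes, and genes of these steps often hold the sequence CACGTG, the E-box bound by MYC and its partner MAX, near their start. The 54 genes were divided by their known role into 6 for RNA polymerase I, 9 for snoRNPs, 18 for the small subunit, 17 for the large subunit and 4 other nucleolar proteins.

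Every one of the 54 genes was lower in CD24 KO than in Scr, except that NOP10, with the smallest difference, lay higher when the columns were scaled to the same sum or quantile normalized. The median difference of log2(FPKM + 1) was -0.76, against -0.03 over all 12822 genes compared, those with at least 1 FPKM in at least 1 column. In RCC2 KO the same genes lay close to Scr, with a median difference of 0.12 and none 1.5-fold changed. NOP56, EBNA1BP2, UTP20 and RRP1 had the largest differences in CD24 KO, at 32.00%, 33.7%, 33.1% and 36.5% of their Scr FPKM.

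Of the 45 genes with a RefSeq window around the start (GRCh38.p14, 250 bases before the start and 50 from it), 22 held the E-box CACGTG, which reads the same on both strands. This is 48.9% of them, against 12.6% of the 9725 genes compared that have a window. The match lay within 50 bases of the start in 21 of the 45 genes (46.7%) and in 520 of the 9725 genes (5.35%). A set of these sites is printed to show how close to the start they lie. Each line gives 30 bases from 5′ to 3′ on the gene's own strand, with the E-box in capitals. The first group comes from genes at least 2-fold lower in CD24 KO, and the last 5 lines from FBL, NAT10, DDX21 and WDR43, which differed less, and from NOP10, which was nearly level.
UTP20: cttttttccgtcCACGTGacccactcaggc
PES1: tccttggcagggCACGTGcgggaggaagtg
MRTO4: cgtcttccgccgCACGTGgattcagcgcga
IMP4: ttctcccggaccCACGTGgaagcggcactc
LTV1: gtcctggggctgCACGTGtggtgaggccta
EBNA1BP2: tggcgctggagcgattcggtggCACGTGga
FBL: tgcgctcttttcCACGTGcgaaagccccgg
NAT10: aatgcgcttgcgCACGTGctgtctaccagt
DDX21: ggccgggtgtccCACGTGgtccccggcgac
WDR43: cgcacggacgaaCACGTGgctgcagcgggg
NOP10: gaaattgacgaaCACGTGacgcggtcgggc

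Counted from the first transcribed base as 1, the E-box began at -10 in UTP20 (chr12:101280083-101280112 on the plus strand), at 14 in PES1 (chr22:30591880-30591909 on the minus strand), at 15 in MRTO4 (chr1:19251807-19251836 on the plus strand), at 16 in IMP4 (chr2:130342900-130342929 on the plus strand) and at 29 in LTV1 (chr6:143843354-143843383 on the plus strand). In EBNA1BP2 it began at 43 (chr1:43172241-43172270 on the minus strand), in FBL at 7 (chr19:39846356-39846385 on the minus strand), in NAT10 at -15 (chr11:34105602-34105631 on the plus strand) and in DDX21 at -31 (chr10:68956604-68956633 on the plus strand). In WDR43 it began at 4 (chr2:28894658-28894687 on the plus strand) and in NOP10 at -11 (chr15:34343130-34343159 on the minus strand). NOP10, IMP4 and EBNA1BP2 each had a further E-box further from a start, beginning at -170, -203 and -237. In 16 of the 22 genes a match lay after the start, within the first transcribed bases.

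**Figure D1:**
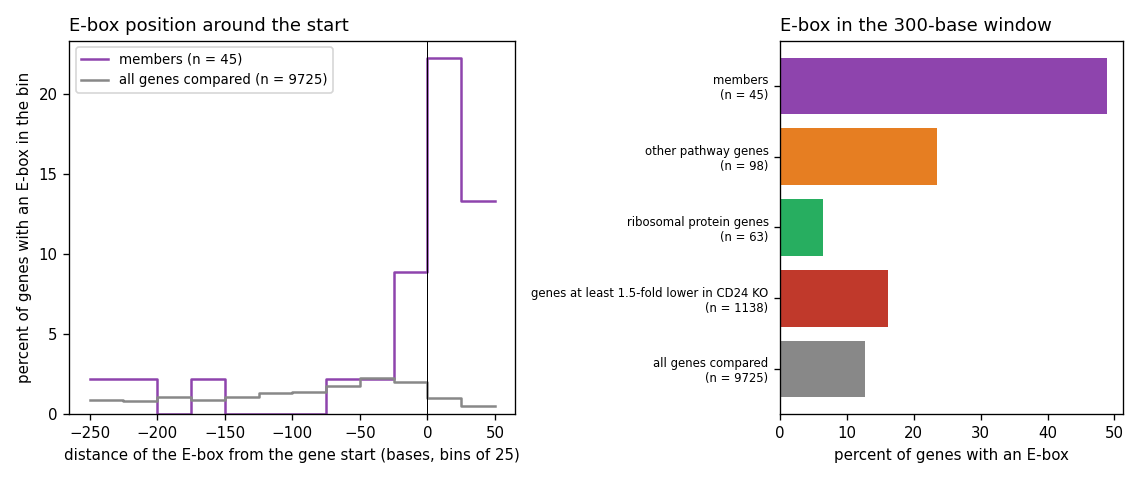
The left panel plots, for bins of 25 bases from 250 bases before the gene start to 50 bases after it, the percent of genes with an E-box beginning in the bin, for 45 members and 9725 compared genes. Members reach 22.2% in the first 25 bases after the start, where all compared genes are at 1.02%. The right panel gives the percent of genes with an E-box anywhere in the window, from 48.9% of members to 6.35% of ribosomal protein genes.

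Members with and without an E-box had close medians in CD24 KO. The 22 genes that hold it had a median difference of log2(FPKM + 1) of -0.74, and the 23 genes with a window but no E-box had one of -0.76. Among the 12 genes at least 2-fold lower in CD24 KO that have a window, 6 held it. MYC RNA was at 77.6 FPKM in Scr, 94.1 in CD24 KO and 72.4 in RCC2 KO, so it was higher in CD24 KO than in Scr. MYC lies on chromosome 8, whose 448 genes compared had a median difference of 0.18 in CD24 KO, beside 0.27 for MYC. Over all genes compared, the 1229 with an E-box had a median difference of -0.10 and the 8496 without one of -0.05. Of 3 further motifs searched on both strands, the ETS motif CCGGAAG was in 15 of the 45 genes (33.3%, against 22.8% of all compared), the GC box GGGCGG in 35 (77.8%, against 78.3%) and the TATA box TATAAA in 2 (4.44%, against 7.87%). No E-box of a member overlapped a match of these 3 motifs. A match describes letters in the window and does not show that a factor was bound, and 10 of the 45 genes had more than 1 window, each of which was searched.

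In Scr the members ranged from BOP1 at 0.892 FPKM to NCL at 876 FPKM. FPKM is a level per length of transcript, so levels can be set beside each other between genes. The highest after NCL were NOP10 at 342 FPKM, FBL at 207 FPKM, NOLC1 at 190.1 FPKM and DDX21 at 162 FPKM. At the other end, POLR1A was at 6.71 FPKM and UTP15 at 11.7 FPKM. Together the 54 genes summed to 3970 FPKM in Scr, 2250 in CD24 KO and 4125 in RCC2 KO, so CD24 KO held 56.7% of the Scr sum and RCC2 KO 104%. Without NCL, the gene with the highest level, the shares were 60.8% and 107%. In such bulk values, fewer cells that express these genes and less of their RNA per cell cannot be told apart.

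**Figure D2:**
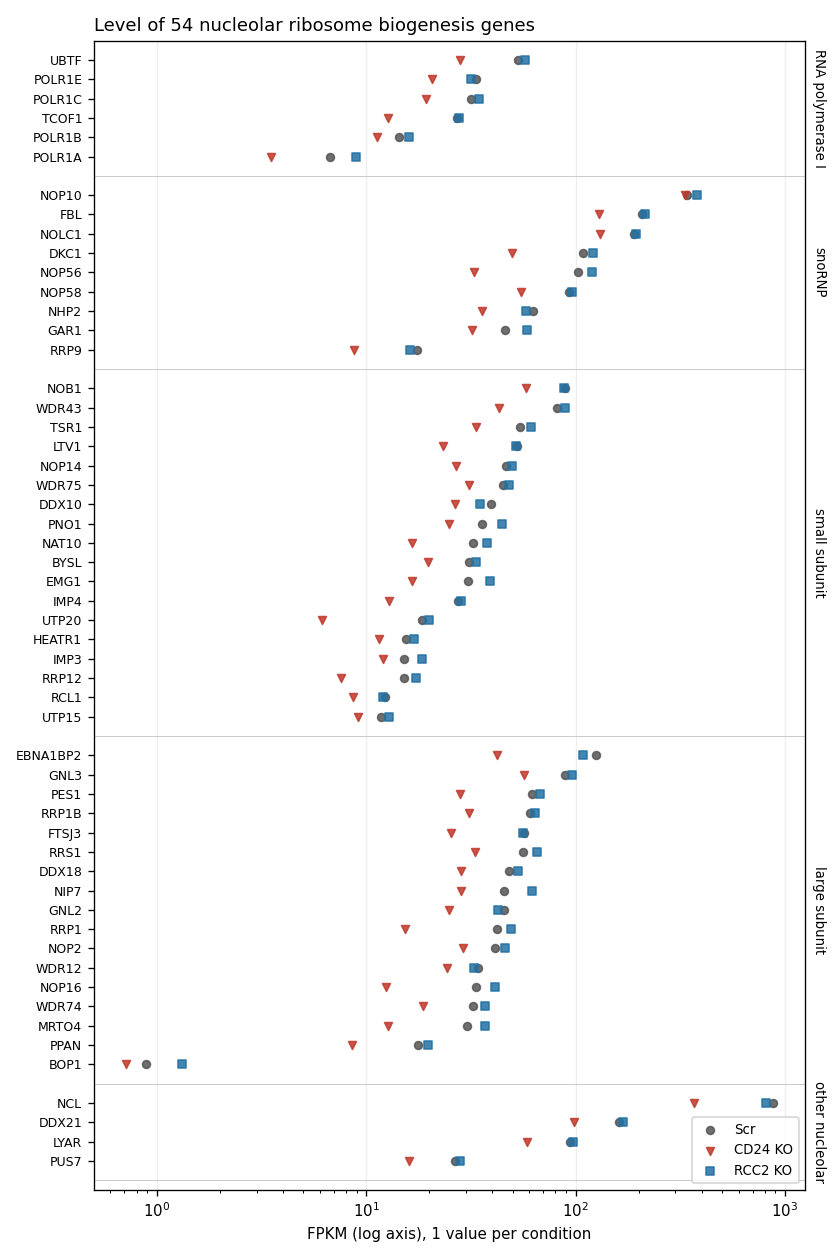
FPKM of the 54 genes on a log axis, grouped by step and ordered within a step by the Scr value, with a circle for Scr, a triangle for CD24 KO and a square for RCC2 KO, 1 value per condition. The triangle lies to the left of the circle for every gene, from NOP10 at 97.1% of Scr to NOP56 at 32.0%, while circle and square mostly lie together.

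The first question is how these genes stand in the libraries labelled CD24 KO against Scr. The set was chosen with earlier results of these data known, so the shares over all genes are a description and not an independent check. By any amount, 54 of 54 were lower, where 52.9% of all genes compared were lower. At least 1.5-fold lower were 40 of the 54 genes (11.6% of all genes compared), and at least 2-fold lower were 13 (3.03% of all). None was higher by any amount (47.0% of all), at least 1.5-fold higher (9.55%) or at least 2-fold higher (2.67%). Folds here and below are counted on log2(FPKM + 1), which understates the change of low genes. The counts depended on how the columns are scaled. With every column scaled to the same sum of FPKM, the median of all genes compared moved from -0.03 to 0.15, 23 of the 54 genes were at least 1.5-fold lower (6.24% of all genes), and of all genes past 1.5-fold 27.1% instead of 54.8% were lower. Relative to the median of all genes, the median of the 54 genes was -0.72 as deposited and -0.70 after this scaling. Genes with higher levels were on the whole lower in CD24 KO. The 2216 genes with a mean of 30 to 100 FPKM over the columns had a median difference of -0.18, and 66.3% of them were lower, while the 27 members in this range had a median of -0.76. Between 10 and 30 FPKM the medians were -0.09 over 3698 genes and -0.80 over 20 members. Among the 54 genes, the difference in CD24 KO had a Spearman correlation of -0.16 with the mean level, given as a description over genes that share their libraries.

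**Figure D3:**
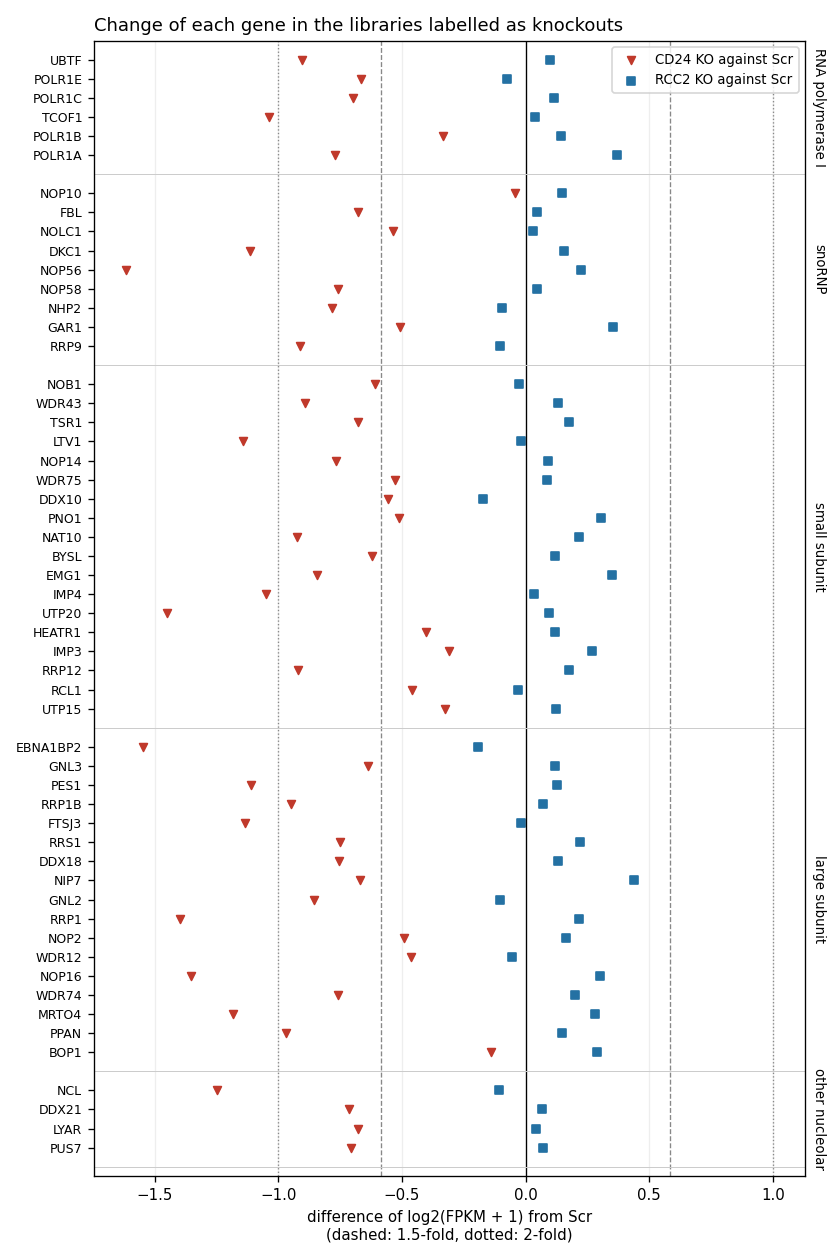
Difference of log2(FPKM + 1) from Scr for each of the 54 genes, grouped by step, with triangles for the libraries labelled CD24 KO and squares for those labelled RCC2 KO. Dashed lines mark 1.5-fold and dotted lines 2-fold. All triangles lie below 0, 40 of them past 1.5-fold, and all squares lie between -0.19 and 0.44.

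The 6 members for RNA polymerase I and its factors were lower in CD24 KO, with a median difference of -0.73 and 5 at least 1.5-fold lower. This does not hold to the same extent for the 11 other genes read for RNA polymerase I, among them RRN3 and TTF1. Their median was -0.30, with 2 at least 1.5-fold lower and 2 higher by any amount. TCOF1 encodes treacle, a nucleolar phosphoprotein that binds the polymerase and UBTF, and was at 27.03 FPKM in Scr, 12.7 in CD24 KO and 27.8 in RCC2 KO. UBTF, the HMG-box protein that coats the active rRNA genes, was at 53.3 FPKM in Scr, 28.03 in CD24 KO and 57.1 in RCC2 KO. POLR1A, the largest and catalytic subunit, was at 6.71 FPKM in Scr, 3.52 in CD24 KO and 8.97 in RCC2 KO. The CD24 KO value was close to 50% of Scr for these 3 genes, at 46.8%, 52.6% and 52.5%. POLR1C, a subunit shared with RNA polymerase III, was at 31.8 FPKM in Scr, 19.2 in CD24 KO and 34.4 in RCC2 KO. POLR1E, which joins the polymerase to its initiation factors, was at 33.4 FPKM in Scr, 20.7 in CD24 KO and 31.7 in RCC2 KO. POLR1B, the other large catalytic subunit, was at 14.4 FPKM in Scr, 11.2 in CD24 KO and 16.01 in RCC2 KO. Its difference of -0.33 in CD24 KO was the smallest of the 6 members. Among the 6 members in RCC2 KO, POLR1A had the highest difference from Scr, 0.37, and POLR1E the lowest, -0.07. POLR1C shares its locus in the table with XPO5, which was at 33.3, 18.5 and 36.5 FPKM in the same order of columns.

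The snoRNP genes divide into the proteins of box C/D particles, which guide 2′-O-methylation, and those of box H/ACA particles, which guide pseudouridylation. Of the 9 genes, 6 were at least 1.5-fold lower in CD24 KO and the median difference was -0.76. NOP56, a scaffold of box C/D particles, was at 103 FPKM in Scr, 32.9 in CD24 KO and 120.03 in RCC2 KO, the largest difference of all 54 genes at -1.61. Its partner NOP58 was at 93.1 FPKM in Scr, 54.7 in CD24 KO and 95.99 in RCC2 KO, and FBL, the methyltransferase of the particle, was at 207 FPKM in Scr, 129 in CD24 KO and 214 in RCC2 KO. NOP56 therefore stood at 1.10 times NOP58 in Scr, 0.601 times in CD24 KO and 1.25 times in RCC2 KO. The table, whose loci were read as hg19, places NOP56 (chr20:2633178-2644869) in 1 locus with IDH3B, a mitochondrial dehydrogenase subunit at 64.5, 38.4 and 65.02 FPKM in the same order. RRP9, which belongs to the U3 particle needed for cutting the precursor, was at 17.4 FPKM in Scr, 8.76 in CD24 KO and 16.1 in RCC2 KO.
DKC1, the pseudouridine synthase of box H/ACA particles, was at 108 FPKM in Scr, 49.4 in CD24 KO and 121 in RCC2 KO. NHP2, one of its binding partners, was at 62.3 FPKM in Scr, 35.7 in CD24 KO and 58.2 in RCC2 KO, and GAR1, which helps to release the modified RNA, was at 45.9 FPKM in Scr, 32.01 in CD24 KO and 58.9 in RCC2 KO. NOP10, the smallest protein of the particle, was at 342 FPKM in Scr, 332 in CD24 KO and 379 in RCC2 KO. The 4 partners thus ran from -1.11 for DKC1 through -0.78 for NHP2 and -0.51 for GAR1 to -0.04 for NOP10. The sign for NOP10 depended on the scaling, with 0.17 after scaling to the same sum, 0.08 after quantile normalization and 0.12 after scaling to the sum over genes above 0 in every column. NOLC1, a chaperone that accompanies snoRNPs to the nucleolus, was at 190.1 FPKM in Scr, 131 in CD24 KO and 194 in RCC2 KO. In RCC2 KO, GAR1 was the highest of the step at 0.35 and RRP9 the lowest at -0.11.

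**Figure D4:**
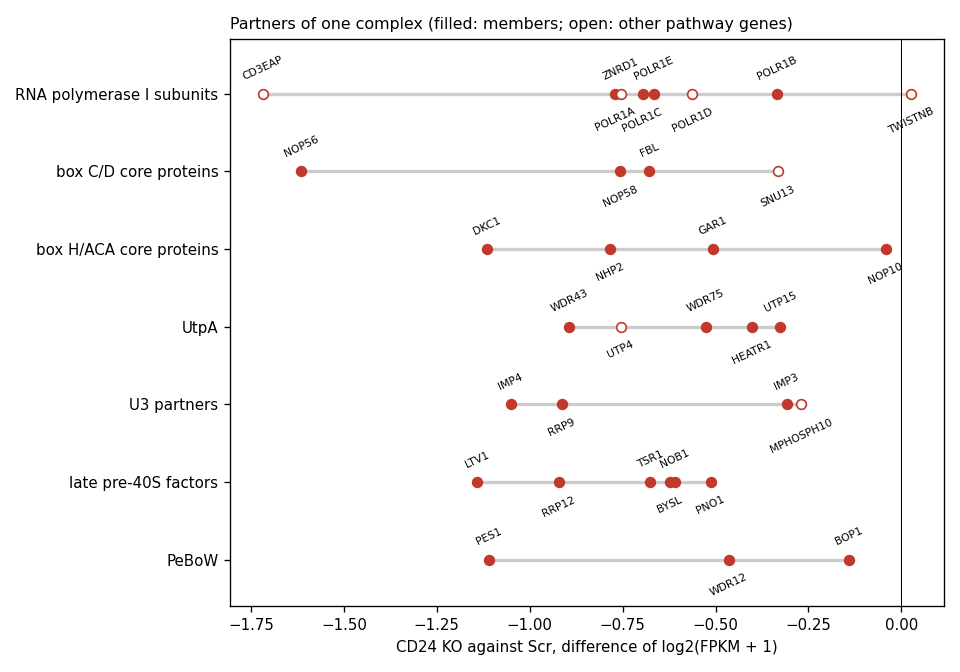
Difference of log2(FPKM + 1) between CD24 KO and Scr for the partners of 7 complexes, 1 row per complex, with filled points for members and open points for other genes of the pathway. A grey bar joins the lowest and the highest partner, which lie 1.28 apart in box C/D particles, 1.07 in box H/ACA particles and 0.63 in the late factors of the small subunit.

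The 18 genes for the small subunit had a median difference of -0.65 in CD24 KO, and 11 of them were at least 1.5-fold lower. UtpA is the complex that binds the precursor first, while it is still being transcribed. Of its members, WDR43 was at 81.3 FPKM in Scr, 43.3 in CD24 KO and 89.2 in RCC2 KO, WDR75 was at 45.3 FPKM in Scr, 31.1 in CD24 KO and 48.05 in RCC2 KO, and UTP15 was at 11.7 FPKM in Scr, 9.13 in CD24 KO and 12.8 in RCC2 KO. HEATR1, a very large repeat protein of the same complex, was at 15.6 FPKM in Scr, 11.5 in CD24 KO and 16.98 in RCC2 KO. Of these 4, WDR43 alone was past 1.5-fold in CD24 KO, at -0.89, and the 3 others lay between -0.53 and -0.33. UTP20, another large scaffold of the small subunit precursor, was at 18.5 FPKM in Scr, 6.13 in CD24 KO and 19.8 in RCC2 KO, the largest difference of the step at -1.45.
IMP4, which pairs U3 with the precursor, was at 27.6 FPKM in Scr, 12.8 in CD24 KO and 28.3 in RCC2 KO, and IMP3, which acts in the same trio of proteins, was at 15.2 FPKM in Scr, 12.1 in CD24 KO and 18.5 in RCC2 KO. IMP4 stood at 46.4% of Scr in CD24 KO and IMP3 at 79.5%, the smallest difference of the step. IMP4 shares its locus with CCDC115, which was at 14.8, 18.4 and 15.3 FPKM in the same order. NOP14, needed for the early cuts of the 18S precursor, was at 46.5 FPKM in Scr, 26.9 in CD24 KO and 49.5 in RCC2 KO. NAT10, which acetylates cytidines of the 18S rRNA, was at 32.4 FPKM in Scr, 16.6 in CD24 KO and 37.8 in RCC2 KO. EMG1, which methylates a pseudouridine of the 18S rRNA, was at 30.5 FPKM in Scr, 16.5 in CD24 KO and 39.1 in RCC2 KO. These modifying enzymes differed by -0.92 and -0.85 in CD24 KO, and EMG1 had the highest difference of the step in RCC2 KO, 0.35. DDX10, a DEAD-box helicase, was at 39.6 FPKM in Scr, 26.5 in CD24 KO and 34.9 in RCC2 KO, and its -0.17 was the lowest difference of the step in RCC2 KO.
Late factors travel with the small subunit precursor towards the cytoplasm. LTV1, an export and assembly factor, was at 52.3 FPKM in Scr, 23.2 in CD24 KO and 51.7 in RCC2 KO. RRP12, an export factor with HEAT repeats, was at 15.2 FPKM in Scr, 7.55 in CD24 KO and 17.3 in RCC2 KO. BYSL, a scaffold of the late precursor, was at 30.9 FPKM in Scr, 19.7 in CD24 KO and 33.6 in RCC2 KO. The difference in CD24 KO was -1.14 for LTV1, -0.92 for RRP12 and -0.62 for BYSL. TSR1, which resembles a translation GTPase, was at 54.2 FPKM in Scr, 33.6 in CD24 KO and 61.4 in RCC2 KO. NOB1, the nuclease that makes the last cut at the end of 18S rRNA, was at 89.4 FPKM in Scr, 58.3 in CD24 KO and 87.7 in RCC2 KO. Its binding partner PNO1 was at 35.8 FPKM in Scr, 24.8 in CD24 KO and 44.4 in RCC2 KO. All 6 late factors were lower in CD24 KO, between -1.14 and -0.51. RCL1, which resembles an RNA cyclase, was below 1.5-fold at -0.46, with 12.3 FPKM in Scr and 8.67 FPKM in CD24 KO, and stood at 97.6% of Scr in RCC2 KO.

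Among the members, the large subunit held the lowest median of the 5 groups in CD24 KO, -0.86. Of its 17 genes 14 were at least 1.5-fold lower and 6 at least 2-fold lower. The other pathway genes read below had another order. Their medians were -0.42 for the large subunit, -0.54 for the small subunit, -0.45 for snoRNPs, -0.30 for RNA polymerase I and -0.59 for other nucleolar genes. EBNA1BP2, a factor of early large subunit precursors, was at 125 FPKM in Scr, 42.1 in CD24 KO and 109 in RCC2 KO. RRP1 and RRP1B are related proteins of the same precursors. RRP1 was at 42.00 FPKM in Scr, 15.3 in CD24 KO and 48.98 in RCC2 KO, and RRP1B, which also binds protein phosphatase 1, was at 60.8 FPKM in Scr, 31.03 in CD24 KO and 63.99 in RCC2 KO. These were differences of -1.55, -1.40 and -0.95. RRP1 and RRP1B lie on chromosome 21, whose 128 genes compared had a median difference of -0.41 in CD24 KO, with 76.6% of them lower, and the part of the chromosome in their values was not tested. RRS1 and BOP1 lie on chromosome 8, whose 448 genes compared were lower in 32.4% of cases. RRS1, which brings the 5S particle into the precursor, was lower in CD24 KO, at 56.1 FPKM in Scr, 32.9 in CD24 KO and 65.6 in RCC2 KO.
NOP16 was at 33.4 FPKM in Scr, 12.5 in CD24 KO and 41.4 in RCC2 KO, a difference of -1.35 in CD24 KO, in a locus shared with HIGD2A at 56.5, 62.1 and 59.4 FPKM in the same order. MRTO4, which holds the place of the ribosomal stalk protein P0, was at 30.2 FPKM in Scr, 12.8 in CD24 KO and 36.9 in RCC2 KO. FTSJ3, an RNA methyltransferase, was at 56.9 FPKM in Scr, 25.4 in CD24 KO and 56.2 in RCC2 KO. Both were more than 2-fold lower in CD24 KO, at 42.2% and 44.6%. FTSJ3 shares its locus with the proteasome gene PSMC5, at 202, 122 and 228 FPKM in the same order. PPAN, a factor for cutting the 27S precursor, was at 17.6 FPKM in Scr, 8.53 in CD24 KO and 19.6 in RCC2 KO. The read-through transcript PPAN-P2RY11 shares its sequence and was listed at 11.3, 4.92 and 11.96 FPKM, so fragments could have been divided between the pair.
PES1, BOP1 and WDR12 form the PeBoW complex of the large subunit. PES1 was at 61.9 FPKM in Scr, 28.1 in CD24 KO and 67.6 in RCC2 KO, and WDR12 was at 34.1 FPKM in Scr, 24.4 in CD24 KO and 32.8 in RCC2 KO. BOP1 was listed at 0.892 FPKM in Scr, 0.715 in CD24 KO and 1.31 in RCC2 KO, far below its partners. The differences in CD24 KO were -1.11, -0.46 and -0.14 for PES1, WDR12 and BOP1, and at the level of BOP1 the pseudocount of 1 hides most of a change. With a pseudocount of 0.1 the BOP1 difference in CD24 KO was -0.28. In these columns PES1 stood at 1.81, 1.15 and 2.06 times WDR12.
GNL2, a GTPase of the precursor, was at 45.6 FPKM in Scr, 24.8 in CD24 KO and 42.4 in RCC2 KO, and the related GTPase GNL3 (nucleostemin) was at 89.02 FPKM in Scr, 56.9 in CD24 KO and 96.6 in RCC2 KO. The helicase DDX18 was at 48.2 FPKM in Scr, 28.2 in CD24 KO and 52.9 in RCC2 KO, and WDR74 was at 32.2 FPKM in Scr, 18.6 in CD24 KO and 37.1 in RCC2 KO. All 4 were past 1.5-fold in CD24 KO, between -0.86 for GNL2 and -0.64 for GNL3. NIP7 was at 45.7 FPKM in Scr, 28.3 in CD24 KO and 62.3 in RCC2 KO, the highest difference of all 54 genes in RCC2 KO at 0.44, in a locus with COG8 and PDF. NOP2, which methylates a cytosine of the 28S rRNA, was at 41.2 FPKM in Scr, 28.99 in CD24 KO and 46.2 in RCC2 KO and, with WDR12 and BOP1, did not reach 1.5-fold in CD24 KO. EBNA1BP2 had the lowest difference of all 54 genes in RCC2 KO, -0.19.

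Of the 4 other nucleolar proteins, all were at least 1.5-fold lower in CD24 KO, with a median difference of -0.71. NCL (nucleolin), an abundant protein that binds rRNA genes and their precursor, was at 876 FPKM in Scr, 368 in CD24 KO and 814 in RCC2 KO. The table places NCL at chr2:232319459-232329205, together with 3 snoRNAs of its introns. The helicase DDX21 was at 162 FPKM in Scr, 98.2 in CD24 KO and 169 in RCC2 KO, the zinc finger protein LYAR at 94.3 FPKM in Scr, 58.6 in CD24 KO and 97.02 in RCC2 KO and the pseudouridine synthase PUS7 at 26.6 FPKM in Scr, 15.9 in CD24 KO and 28.1 in RCC2 KO. NCL differed most, at -1.25, and the 3 others lay between -0.71 and -0.68. In RCC2 KO, PUS7 was the highest of the 4 at 0.07 and NCL the lowest at -0.11. Several members are hosts of snoRNAs. Of the 54, 8 shared their locus with 26 snoRNAs, and all 26 were listed at 0 in the 3 columns, so the RNA partners of these particles could not be read. Altogether 14 of the 54 genes shared a locus with another gene of at least 1 FPKM. One of these is NOP14-AS1, antisense to NOP14, at 7.02, 6.23 and 8.06 FPKM in the order of Scr, CD24 KO and RCC2 KO, and the reads of the pair may not have been told apart.

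In RCC2 KO against Scr, 42 of the 54 genes were higher and 12 lower, where 49.3% of all genes compared were higher and 50.6% lower. LTV1 and FTSJ3, at -0.02 each, turned to 0.00 when the columns were scaled to the sum over genes above 0 in every column. No member was at least 1.5-fold higher (1.45% of all genes compared) or at least 1.5-fold lower (3.82% of all), and so none was 2-fold higher (0.406%) or 2-fold lower (0.796%). The members' median difference of 0.12 lay beside a median of 0.00 over all genes. By step the medians were 0.11 for RNA polymerase I, 0.05 for snoRNPs, 0.12 for the small subunit, 0.15 for the large subunit and 0.05 for the other 4. On log2(FPKM + 1), NIP7 and POLR1A had the highest differences, 0.44 and 0.37, and EBNA1BP2 and DDX10 the lowest, -0.19 and -0.17. As a percent of Scr FPKM, BOP1 was the highest at 147%, from a level below 1 FPKM, before NIP7 at 136% and POLR1A at 134%. Whether differences of this size exceed those between libraries of 1 condition could not be examined with 1 value each.

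RCC2 KO was also set directly against CD24 KO, which uses no Scr value. It reuses the CD24 KO and RCC2 KO columns, so its differences follow from those against Scr and are not an independent check. All 54 genes were higher in RCC2 KO (51.6% of all genes compared were higher and 48.3% lower), except that NOP10 was at -0.01 after scaling the columns to the same sum. At least 1.5-fold higher were 43 genes (13.8% of all), and at least 2-fold higher were 22 (4.02% of all). None was at least 1.5-fold lower (14.1% of all) or 2-fold lower (4.30%). Scaling to the same sum moved the median of all genes from 0.02 to -0.15, and the share of lower genes among all past 1.5-fold from 50.5% to 72.5%. The median difference was 0.85, with 0.91 for RNA polymerase I, 0.80 for snoRNPs, 0.84 for the small subunit, 1.02 for the large subunit and 0.78 for the other 4. NOP56, NOP16 and RRP1 had the highest differences, at 1.84, 1.65 and 1.62. NOP10, at 0.19, was the lowest.

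A further 120 genes of the same pathway, listed from knowledge of the pathway, were read in the same way, and 119 passed the minimum of 1 FPKM. In CD24 KO, 107 of the 119 were lower than in Scr, where 52.9% of all genes compared were lower. At least 1.5-fold lower were 46 (11.6% of all), and at least 2-fold lower were 9 (3.03% of all). None was at least 1.5-fold higher (9.55% of all), and the median difference was -0.46. By step, 2 of 11 genes for RNA polymerase I, 3 of 10 for snoRNPs, 18 of 40 for the small subunit, 14 of 41 for the large subunit and 9 of 17 others were at least 1.5-fold lower. NPM1 (nucleophosmin), the nucleolar protein that binds the tumor suppressor ARF, was at 488 FPKM in Scr, 162 in CD24 KO and 483 in RCC2 KO. CD3EAP, another subunit of RNA polymerase I, was at 9.44 FPKM in Scr, 2.17 in CD24 KO and 9.13 in RCC2 KO. The helicase DHX37 was at 15.1 FPKM in Scr, 4.54 in CD24 KO and 18.3 in RCC2 KO. These 3 had the largest differences of the list, -1.72 for CD3EAP, -1.58 for NPM1 and -1.54 for DHX37. The 6 others at least 2-fold lower were NOL6, DDX56, DDX51, NGDN, URB1 and RUVBL1, between -1.18 and -1.02. Among the 12 genes that were higher, RSL24D1 had the largest difference at 0.29. In RCC2 KO, 84 of the 119 genes were higher (49.3% of all genes compared) and 35 lower (50.6% of all), with a median of 0.09. None was at least 1.5-fold higher (1.45% of all) or at least 1.5-fold lower (3.82% of all).
Other subunits extended the range within complexes. TWISTNB, also a subunit of RNA polymerase I, was at 11.9 FPKM in Scr, 12.2 in CD24 KO and 14.05 in RCC2 KO, so the 8 subunits read ran from -1.72 to 0.03 in CD24 KO. SNU13, the remaining core protein of box C/D particles, was at 66.2 FPKM in Scr, 52.4 in CD24 KO and 73.5 in RCC2 KO, the smallest difference of the 4 at -0.33. UTP4, the partner of the UtpA members above, was at 64.5 FPKM in Scr, 37.8 in CD24 KO and 76.2 in RCC2 KO, and its -0.76 lay between those of WDR43 and WDR75. An E-box was in 23 of the 98 genes of this list with a window (23.5%). In CD24 KO all 23 were lower than in Scr, with a median of -0.54. Of the 75 without an E-box 66 were lower, with a median of -0.46. For RCC2 KO against CD24 KO the medians were 0.71 with and 0.46 without an E-box. Among the members the order was the other way, at 0.81 with and 0.96 without.

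**Figure D5:**
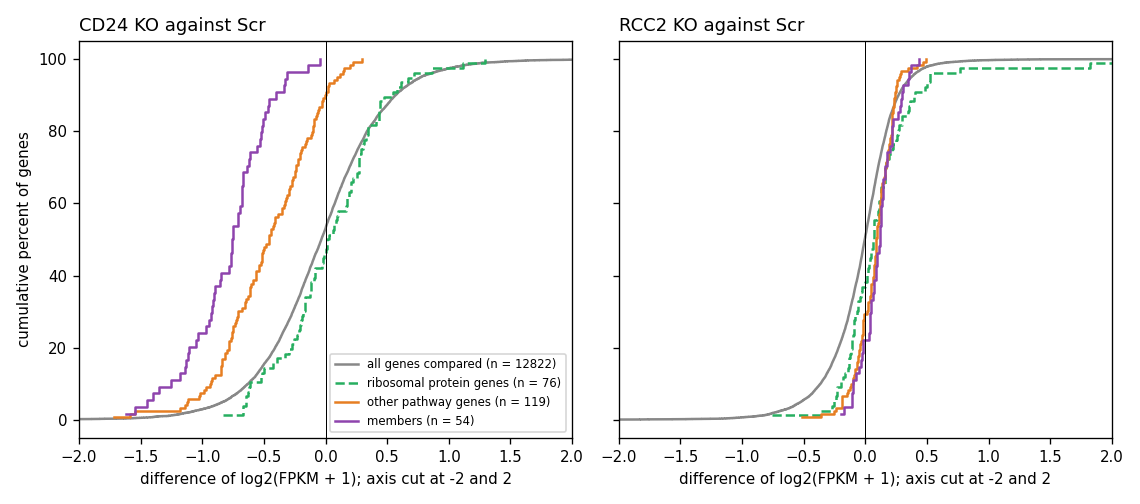
Cumulative percent of genes against the difference of log2(FPKM + 1) from Scr, for CD24 KO on the left and RCC2 KO on the right. Lines show all 12822 genes compared, 76 ribosomal protein genes, 119 other pathway genes and the 54 members. In CD24 KO the members' line lies furthest to the left with a median of -0.76, and in RCC2 KO the members' median is 0.12.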

How the data were processed

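RNA-seq covered 6 libraries of DU145 cells, 2 for each of 3 conditions. The authors deposited 1 table of FPKM values with 1 column per condition. How the 2 libraries of a condition were combined is not given in the sources used here. Per the submitters' processing notes, HISAT, StringTie, Cufflinks and GATK were used. Versions and genome build are not given in the sources used here. Of the 54 members, 7 overlapped their GRCh38.p14 position, and the loci were read as hg19. The paper names a stranded mRNA kit and the labels a kit used on total RNA, so strand cannot be taken as known where loci are shared.

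Values were used as deposited. Genes with at least 1 FPKM in at least 1 column (12822 genes) were compared as differences of log2(FPKM + 1), which understate the change of low genes, at fold minimums of 1.5 and 2. No test could be run with 1 value per condition, and depth is unknown. The members, the gene lists and the complexes were chosen with earlier results of these data known, and the lists were written from memory. Named with all values were members past 1.5-fold, the highest and lowest of each step and representatives of each step, and of other pathway genes those past 2-fold and NPM1. For other pathway genes past 2-fold, values are given for the 3 with the largest differences and a range for the rest. The neighbours in shared loci, MYC, TWISTNB, SNU13, UTP4 and RSL24D1 were chosen after their values were seen. Promoter windows came from RefSeq (GRCh38.p14), with 45 of 54 members matched. Protein features were not used here. Some marker genes are not reported here. Calculations were tested on simulated data. Alternatives were pseudocounts of 0.1 and 5, other filters, equal column sums, median centring, quantile normalization and, added later, the sum over genes above 0 in every column. Medians that moved by at least 0.1, and counts that moved by over 1.5 times, were counted as moved. Python 3.11.15, pandas 2.3.3, NumPy 2.4.6, SciPy 1.17.1 and matplotlib 3.10.9 were used.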

Additional observations from a re-analysis of the deposited data

How the results depend on the processing

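No paired analysis was possible because the table holds 1 value per condition, and for the same reason no library could be left out. Of 270 values recomputed for the gene lists, 231 stayed within the tolerance, which was a factor of 1.5 for counts and 0.1 for medians, and 39 moved past it. Of the 39, 3 medians changed sign, all of the ribosomal protein genes for RCC2 KO against CD24 KO. Differences for single members changed sign for NOP10, LTV1 and FTSJ3, as given with their values above. With equal column sums, 23 members were at least 1.5-fold lower in CD24 KO than in Scr (6.24% of all genes compared). Of the members, 1 was higher by any amount and the median was -0.55. The RCC2 KO against CD24 KO median was then 0.66, with 1 member lower. Members at least 1.5-fold lower in CD24 KO, 40 as deposited (11.6% of all genes compared), were 30 after quantile normalization (10.3% of all). They were 29 with the added scaling described next (7.21% of all). Quantile normalization gave members medians of -0.61, with 1 higher, and 0.71. Scaling to the sum over genes above 0 in every column, chosen after seeing the data, gave -0.59, with 1 higher, and 0.71. At a fold minimum of 2, 13 members were lower in CD24 KO than in Scr (3.03% of all genes compared). For RCC2 KO against CD24 KO, 22 members were higher (4.02% of all). Of the other pathway genes, 30 were at least 1.5-fold lower in CD24 KO with a pseudocount of 5 (6.88% of all genes compared). Their median was then -0.34. With equal column sums 25 were (6.24% of all), with a median of -0.26, and the median was -0.30 with the added scaling. With a pseudocount of 0.1, 1 was at least 1.5-fold higher in RCC2 KO than in Scr (2.97% of all). For RCC2 KO against CD24 KO their median was 0.31 with equal sums and 0.36 with the added scaling. Ribosomal protein genes at least 1.5-fold lower and higher in CD24 KO numbered 1 and 14 with equal sums (median 0.23), 1 and 13 with quantile normalization (median 0.21) and 1 and 13 with the added scaling (median 0.19). In RCC2 KO against CD24 KO the counts of ribosomal protein genes were 4 and 7 as deposited (median 0.09). They turned to 9 and 3 (median -0.11), 9 and 3 (median -0.14) and 8 and 3 (median -0.055), so the direction rests on the scaling. Over all genes compared the shares were 14.1% and 13.8% as deposited, then 21.3% and 8.08%, 13.2% and 12.9%, and 19.0% and 9.48%. Of all genes past 1.5-fold in CD24 KO, 54.8% were lower as deposited, 27.1% with equal sums (800 lower, 2155 higher), 32.5% with the added scaling (924 lower, 1918 higher) and 65.6% with a pseudocount of 5. For RCC2 KO against CD24 KO 50.5% were lower as deposited, 72.5% with equal sums, 66.7% with the added scaling and 38.1% with a pseudocount of 5. Depth is unknown and limits the lowest genes most, BOP1 among the members.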

Other observations

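The ribosomal proteins are the parts that the 54 factors assemble with rRNA. Of 79 ribosomal protein genes, 76 passed the minimum of 1 FPKM. Their median difference of log2(FPKM + 1) from Scr was 0.02 in the libraries labelled CD24 KO, with 35 genes lower and 41 higher, and 8 at least 1.5-fold lower (11.6% of all genes compared) against 6 at least 1.5-fold higher (9.55% of all). With equal column sums the CD24 KO median was 0.23. Then 1 gene was at least 1.5-fold lower (6.24% of all) and 14 higher (16.8% of all), so the balance of directions rests on the scaling. In RCC2 KO the median was 0.07. Values are given for 4 genes chosen after their values were seen. RPS6, a protein of the small subunit, was at 748 FPKM in Scr, 1013 in CD24 KO and 716 in RCC2 KO. RPL11 was at 2212, 1972 and 2124 FPKM in the same order. RPS14 was at 598 FPKM in Scr and at 65.5% of this in CD24 KO, and RPS21 was at 196 FPKM in Scr and 313 FPKM in CD24 KO. RPS18 was listed at 0 in all 3 columns. Ribosomal protein genes have many processed pseudogenes, and the division of fragments between copies is not known, so single values are uncertain. An E-box was in 4 of 63 ribosomal protein genes with a window (6.35%).

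The RNA exosome, the nuclease complex that trims rRNA precursors and degrades their cut pieces, was read through 11 genes. All 11 are among the 119 other pathway genes counted above, so they are not a further set. In CD24 KO, 9 of the 11 were lower than in Scr (52.9% of all genes compared), 5 of them at least 1.5-fold (11.6% of all). Their median was -0.48. EXOSC2 was at 48.5 FPKM in Scr, 25.2 in CD24 KO and 49.3 in RCC2 KO. DIS3, its catalytic partner, was at 13.6, 13.8 and 14.1 FPKM. In RCC2 KO all 11 were higher than in Scr (49.3% of all genes compared), with a median of 0.18. None was at least 1.5-fold higher (1.45% of all).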
